A study of Mus musculus with 6 samples.

Results

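The TNF superfamily and NF-kB signalling genes were followed in mouse fat 7 days after grafting. Members were chosen by gene symbol: the protein-coding genes of the deposited table named as TNF ligands (Tnf, Tnfsf, Cd40lg), receptors (Tnfrsf, Fas), receptor adaptors (Traf, Tradd), kinases of the pathway (Ikbk, Map3k14), NF-kB subunits (Nfkb, Rel, Rela, Relb), inhibitors (Nfkbi) and TNF-induced or A20-binding proteins (Tnfaip, Tnip). The rule found 62 of the 12163 genes listed. Grafts taken 7 days after fat grafting (3 libraries) were compared with fat tissue before grafting (3 libraries), all from wild type C57BL/6 mice, an inbred strain. The labels used here name no depot, graft site, sex or age and no sham operation, and they do not say that the libraries of a group came from separate mice, so p-values measure only the spread between these libraries, which may be technical. Each value is a read count divided by the size factor of its library, called normalized reads below.

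The TNF superfamily consists of trimeric ligands, mostly anchored in the cell membrane, and of receptors that recruit TRAF proteins or, through a death domain, TRADD and FADD. In the canonical branch the IkB kinase complex marks IkB proteins for destruction and so frees dimers of RelA, c-Rel and p50, while in the alternative branch NIK and IKK-alpha drive the processing of p100 to p52, the partner of RelB. Many inhibitors of the pathway, among them IkB-alpha and A20, are themselves NF-kB targets and form its negative feedback. In fat, TNF is best known as a macrophage product that lowers insulin signalling and lipid storage in adipocytes.

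The deposited table holds almost no gene that is alike in both groups: limma gave 10772 of the 10854 genes tested an unadjusted p below 0.05, so a call is the usual state of a listed gene. A further 15 annotated genes that the rule matches, among them Cd40, Chuk, Ikbkb, Traf6, Fasl and Tnfsf13, were outside the table and are not analysed here. Listed genes took 13027776 to 15924559 reads in each library. Summed adipocyte markers (8 of 8 listed genes called lower) were 20045, 6911 and 5477 normalized reads in grafts 1, 2 and 3, against 224443, 308550.0 and 227181 before grafting. Macrophage markers (8 of 8 called higher) summed to 189062 to 198552 normalized reads in grafts, against 21193 to 23984 before grafting. Lyz2, named after its values were seen, made up most of these sums, with 127416 to 142974 in grafts, against 14069 to 16403 before grafting. Neutrophil markers (7 of 7 called higher) summed to 40366 to 77214 normalized reads in grafts, against 375 to 600.1 before grafting. For Ly6g, 1 of these 7, no library before grafting reached the minimum for testing, so it had to differ to be tested. Fibroblast markers (4 called higher and 1 lower of 6) summed to 600844 to 1017530.0 normalized reads in grafts, against 109730.0 to 138916 before grafting. Most of these graft sums came from Col3a1 and Col1a1, with means of 448038 and 356037 in grafts, against 72850 and 24562 before grafting. Dpt, the 1 called lower, had a mean of 2168 in grafts, against 9449 before grafting. Dendritic cell markers (1 called higher and 7 lower of 8) summed to 4213 to 5505 normalized reads in grafts, against 5659.9 to 7053 before grafting. Most of the graft sums came from Fscn1, the 1 called higher, with 3624 to 4199 in grafts, against 2043 to 2819 before grafting. The sums therefore understate the fall of the other 7. Of 6 endothelial markers only Kdr was listed, with 1607, 1479 and 1277 normalized reads in grafts, against 3344, 4370.2 and 3832 before grafting (log2 fold change -1.40, SE 0.13, adjusted p = 1.37e-04). Of the 62 members, 41 were highest in replicate 1 among the libraries before grafting, against 34.9% of tested genes, and 37 were lowest in replicate 1 among the grafts, against 34.2% of tested genes. In these bulk samples, fewer cells of a type and less RNA per cell cannot be told apart, and the part of these cell types in the results below was not tested.

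Most of the listed TNF and NF-kB genes were higher in grafts. Of 61 tested members, 45 were called higher and 10 lower by limma, with an adjusted p under 0.05, and 6 were not called; Tnfrsf17 was below the minimum for testing. That is 90.2% of the tested members called, 73.8% higher and 16.4% lower, against 80.4% of all tested genes called, 41.3% higher and 39.2% lower. These counts include Tnfsf4, called higher, and Cd40lg, called lower. Both reached the minimum for testing only in the group where they were high, so they had to differ to be tested. Calls of a log2 fold change of 1 or more in size came to 32 members above and 8 below the fat before grafting, or 52.5% and 13.1% of those tested, against 25.6% and 27.8% of tested genes. Groups did not overlap for 60 of the 61 members, against 97.6% of tested genes, and 50 members had every graft above every library before grafting, against 49.6% of tested genes. Separate groups are thus the usual state of a tested gene, also where they are given for single genes below. Members had a median log2 fold change of 1.05, and all tested genes one of 0.28. These shares depended on how the libraries were scaled. With the cytosolic ribosomal protein genes, whose median log2 fold change was 0.76, set to no change, 26 members were higher and 11 lower, the member median was 0.28, and 18.1% of tested genes were higher and 52.7% lower. Under that scaling 13 members turned to the other direction, while 32 members, 26 higher and 6 lower, were called the same way under every alternative run. Cd40lg, which had to differ to be tested, is among these 6.

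**Figure D1:**
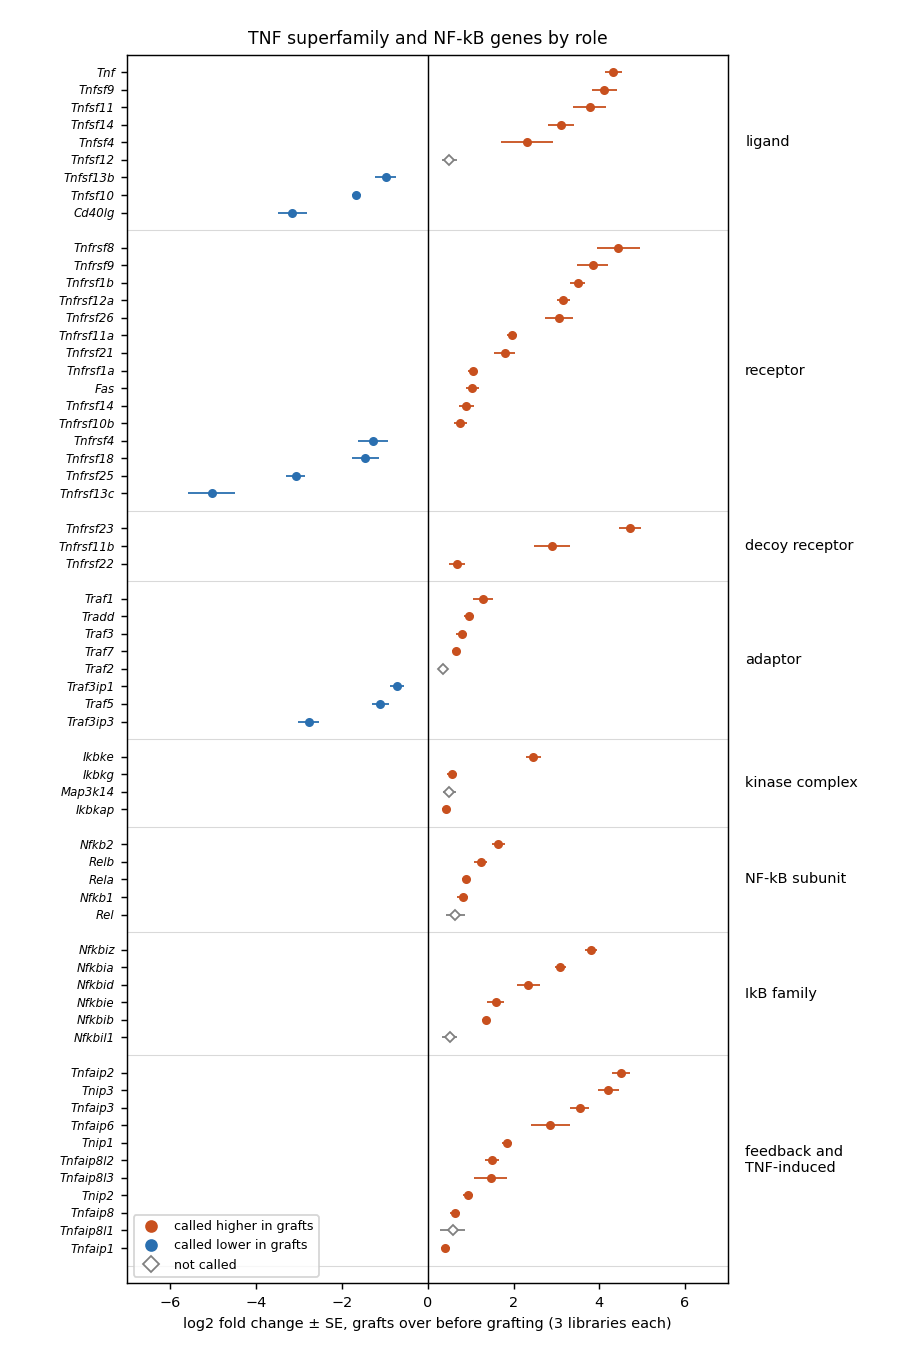
Log2 fold changes of the 61 tested members, grafts over before grafting (x axis, with SE, 3 libraries in each group), ordered by role; filled points are called at an adjusted p under 0.05 and open diamonds are not. Members called lower stand among ligands, receptors and adaptors, while NF-kB subunits, IkB genes and feedback genes lie above 0; with ribosomal protein genes held constant 13 members change direction, among them Rel, Nfkbil1, Traf2, Tnfsf12 and Ikbkg.

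Among the 9 ligand genes, 5 were higher, 3 lower and 1 was not called, against 41.3% of all tested genes higher and 39.2% lower. Tnf, the founding member of the family (chromosome 17, 35199381 to 35202007, minus strand, GRCm38), had 1240.3, 1584 and 1163 normalized reads in grafts, against 82.8, 54.7 and 60.0 before grafting. Every graft was far above every library before grafting (log2 fold change 4.32, SE 0.20, adjusted p = 4.17e-06). Tnfsf9, the ligand of CD137, had 407, 252 and 322 normalized reads in grafts, against 12.8, 22.3 and 18.7 before grafting (log2 fold change 4.12, SE 0.28, adjusted p = 2.66e-05), and 14.9% of its exon bases are shared with Gm11110 on the opposite strand. Tnfsf11 encodes RANKL, best known for driving osteoclast formation. It had 401, 667 and 1001 normalized reads in grafts, against 70.0, 31.4 and 44.3 before grafting, so the groups were separate while the grafts differed widely among themselves (log2 fold change 3.78, SE 0.38, adjusted p = 2.30e-04). Tnfsf14, or LIGHT, which binds HVEM and the lymphotoxin beta receptor, had 372, 393 and 479 normalized reads in grafts, against 73.0, 30.4 and 47.2 before grafting (log2 fold change 3.10, SE 0.30, adjusted p = 1.82e-04). Tnfsf4, the OX40 ligand, was near the limit of detection, with 19.1, 18.4 and 17.8 normalized reads in grafts, against 1.0, 2.0 and 8.9 before grafting. It had to differ to be tested, since no library before grafting reached the minimum of 10, and its call (log2 fold change 2.32, SE 0.61, adjusted p = 0.0345) was lost with ribosomal protein genes held constant (adjusted p = 0.173), under upper quartile scaling (adjusted p = 0.0527), and on leaving out any graft or replicate 1 or 2 before grafting (adjusted p = 0.0806 to 0.118). Tnfsf12, or TWEAK, had 237, 234 and 178 normalized reads in grafts, against 145, 166 and 142 before grafting; its values were separate between groups but the difference missed the threshold (log2 fold change 0.51, SE 0.18, adjusted p = 0.114), it turned to -0.25 with ribosomal protein genes held constant, and 46.8% of its 50-base words also occur in the read-through gene Tnfsfm13.

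The ligands that fell were TRAIL, BAFF and the CD40 ligand. Tnfsf10, which encodes the death ligand TRAIL, had 298, 329 and 299.7 normalized reads in grafts, against 1017, 894 and 1032 before grafting (log2 fold change -1.66, SE 0.11, adjusted p = 2.22e-05). The grafts lay far below the libraries before grafting. Tnfsf13b, or BAFF, the survival factor of B cells, had 92.4, 91.2 and 74.2 normalized reads in grafts, against 229, 128 and 165 before grafting (log2 fold change -0.97, SE 0.25, adjusted p = 0.0285). This call was lost on leaving out graft replicate 2 or 3 or replicate 1 or 3 before grafting (adjusted p = 0.0612 to 0.101). Cd40lg is given with the other lymphocyte genes below. Per kilobase of gene length, the share of Tnf in the reads on the 9 ligand genes was 44.4 ± 6.16 in grafts and 8.52 ± 1.01 before grafting (percent, SD, n = 3 each). The share of Tnfsf10 was 3.22 ± 0.15 in grafts and 39.9 ± 2.64 before grafting (percent, SD, n = 3 each). Among these 9 genes, Tnfsf10 was the most abundant by this measure in each of the 3 libraries before grafting, followed by Tnfsf12, and in each graft it was Tnf. The ranking leaves out family genes outside the rule. Ltb, 1 of these, had a mean of 758 normalized reads per kilobase before grafting, against 186 for Tnfsf10.

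Receptor genes also went both ways, with 11 of 15 tested called higher and 4 lower, against 41.3% and 39.2% of all tested genes. Both TNF receptors were called higher, although Tnfrsf1a kept no call with ribosomal protein genes held constant. Tnfrsf1b, the TNF receptor 2 of immune and endothelial cells, had 11337, 15748 and 15284 normalized reads in grafts, against 1524, 1059 and 1167 before grafting (log2 fold change 3.50, SE 0.17, adjusted p = 6.64e-06). Tnfrsf1a, the broadly expressed TNF receptor 1 with a death domain, had 5459, 5025 and 4918 normalized reads in grafts, against 2369, 2724 and 2376 before grafting (log2 fold change 1.05, SE 0.10, adjusted p = 1.37e-04), and with ribosomal protein genes held constant its log2 fold change was 0.28 (adjusted p = 0.137). The ratio of Tnfrsf1b to Tnfrsf1a, per kilobase of gene length, was 1.41, 2.13 and 2.11 in grafts, against 0.44, 0.26 and 0.33 before grafting. This ratio does not depend on library scaling and lay above 1 in every graft and below 1 in every library before grafting. Of the reads per kilobase on the 19 receptor and decoy genes, Tnfrsf1b took 41.3 ± 3.33 in grafts and 12.5 ± 1.86 before grafting, and Tnfrsf1a took 22.5 ± 3.61 in grafts and 36.9 ± 4.18 before grafting (percent, SD, n = 3 each).

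Further receptor genes were called higher in grafts, some of them with few reads before grafting. Tnfrsf8, which encodes CD30, had 138, 148 and 175 normalized reads in grafts, against 10.8, 2.0 and 8.9 before grafting (log2 fold change 4.44, SE 0.51, adjusted p = 4.26e-04). Tnfrsf9, the activation-induced receptor CD137, had 1369, 1464 and 602 normalized reads in grafts, against 77.9, 52.7 and 95.4 before grafting, with graft replicate 3 below the other two grafts (log2 fold change 3.84, SE 0.36, adjusted p = 1.48e-04). Its ligand gene Tnfsf9 rose as well. Tnfrsf12a, or Fn14, a receptor for TWEAK that is known to be induced by tissue injury and growth factors, had 664, 637 and 540.1 normalized reads in grafts, against 66.1, 69.9 and 66.9 before grafting (log2 fold change 3.16, SE 0.15, adjusted p = 5.06e-06). Its libraries before grafting were close together. Tnfrsf11a, which encodes RANK, the receptor of RANKL, had 1026, 946 and 929.8 normalized reads in grafts, against 280.0, 224 and 242 before grafting (log2 fold change 1.96, SE 0.12, adjusted p = 1.66e-05). Tnfrsf21, the death receptor DR6, had 1196, 2396 and 2101 normalized reads in grafts, against 541, 547 and 489 before grafting (log2 fold change 1.79, SE 0.24, adjusted p = 9.81e-04). Fas, the receptor of the Fas ligand, had 902, 1188 and 1253 normalized reads in grafts, against 484, 605 and 524 before grafting (log2 fold change 1.04, SE 0.15, adjusted p = 0.00155), and with ribosomal protein genes held constant its log2 fold change was 0.28 (adjusted p = 0.616). Tnfrsf14, or HVEM, and Tnfrsf10b, the mouse death receptor for TRAIL, were called higher by 0.90 (adjusted p = 0.00688) and 0.76 (adjusted p = 0.00968) on the log2 scale; with ribosomal protein genes held constant Tnfrsf14 stood at 0.14, Tnfrsf10b stood just below 0, and neither was called.

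**Figure D2:**
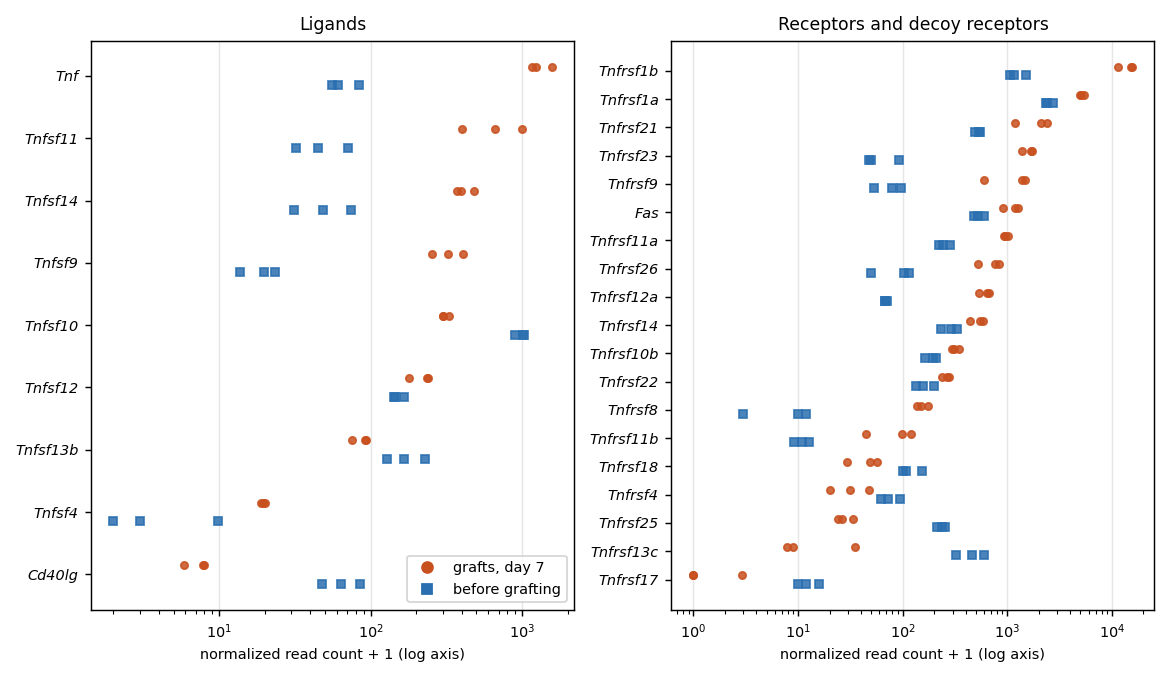
Normalized read count + 1 in each library (log x axis) of the 9 ligand genes and of the 19 receptor and decoy receptor genes; circles are grafts at day 7 and squares are libraries before grafting, 3 of each per gene, sorted by graft mean. Grafts and libraries before grafting do not overlap for any gene shown, nor for 97.6% of all tested genes. Cd40lg, Tnfsf10, Tnfsf13b and 5 receptors lie lower in grafts, and with ribosomal protein genes held constant Tnfsf12, Tnfrsf10b and Tnfrsf22 change direction.

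The 3 decoy receptors, which bind ligand without passing on its signal, were called higher, against 41.3% of all tested genes. Tnfrsf22 turned to -0.07 with ribosomal protein genes held constant. Tnfrsf11b encodes osteoprotegerin, the soluble decoy of RANKL. It had 43.2, 119 and 97.9 normalized reads in grafts, against 11.8, 8.1 and 9.8 before grafting (log2 fold change 2.90, SE 0.42, adjusted p = 0.00153). The ratio of Tnfsf11 to Tnfrsf11b per kilobase was 11.7, 7.05 and 12.9 in grafts, against 7.46, 4.88 and 5.67 before grafting; these values overlap between the groups, and Tnfrsf11b had as few as 8.1 normalized reads in a library. Tnfrsf26, Tnfrsf22 and Tnfrsf23 lie next to each other on chromosome 7 (143607659 to 143685872, GRCm38), and in the mouse Tnfrsf22 and Tnfrsf23 are decoy receptors for TRAIL. Tnfrsf23 had 1382, 1679.7 and 1723 normalized reads in grafts, against 49.3, 46.6 and 91.5 before grafting (log2 fold change 4.71, SE 0.26, adjusted p = 9.96e-06), the largest log2 fold change among the tested members. Tnfrsf26 had 529, 765 and 829 normalized reads in grafts, against 113, 48.6 and 102 before grafting (log2 fold change 3.06, SE 0.33, adjusted p = 3.14e-04). Tnfrsf22 had 236, 267 and 276 normalized reads in grafts, against 155, 133 and 199.7 before grafting, a much smaller difference (log2 fold change 0.69, SE 0.19, adjusted p = 0.0392) that lost its call under each of the 3 other scalings and on leaving out graft replicate 2 or 3 or replicate 1 or 2 before grafting (adjusted p = 0.115 to 0.131). Reads of Tnfrsf22 and Tnfrsf23 are uncertain, because 18.01% of the 50-base words of Tnfrsf23 occur in Tnfrsf22 transcripts, and because antisense gene E230032D23Rik overlaps Tnfrsf23 and Tnfrsf26 and the use of strand is not given in the sources used here.

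A second group of receptor genes lies on chromosome 4 (7 receptors within 10.82 Mb, 145213463 to 156028895, GRCm38). There Tnfrsf1b, Tnfrsf8, Tnfrsf9 and Tnfrsf14 were higher and Tnfrsf4, Tnfrsf18 and Tnfrsf25 lower. Tnfrsf1b and Tnfrsf8, 20.3 kb apart, were both higher, and Tnfrsf4 and Tnfrsf18, 9.6 kb apart, were both lower. Tnfsf9 and Tnfsf14, both higher, lie 81.7 kb apart on chromosome 17.

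Of 8 adaptor genes, 4 were higher, 3 lower and 1 was not called. This is near the shares of all tested genes, 41.3% higher and 39.2% lower. Traf1, an adaptor that is itself a known NF-kB target, had 1276, 1592 and 1855 normalized reads in grafts, against 829, 445 and 689 before grafting (log2 fold change 1.30, SE 0.23, adjusted p = 0.00551); with ribosomal protein genes held constant its log2 fold change was 0.53 (adjusted p = 0.33). Tradd, which links TNF receptor 1 to the kinase RIPK1, had 482, 438 and 469 normalized reads in grafts, against 245, 229 and 237 before grafting (log2 fold change 0.96, SE 0.12, adjusted p = 5.61e-04). Traf3, which holds NIK at low levels, was called higher by 0.79 (adjusted p = 0.00285) and Traf7, a ubiquitin ligase, by 0.65 (adjusted p = 0.00137). Traf2, a core component of the TNF receptor 1 complex, had 688, 606 and 691 normalized reads in grafts, against 547, 514 and 494 before grafting and missed the threshold (log2 fold change 0.35, SE 0.11, adjusted p = 0.0666). Under the ribosomal protein scaling Tradd and Traf3 lost their calls, Traf7 stood at -0.11, and Traf2 was called lower at -0.41 (adjusted p = 0.0355).

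Of 4 kinase complex genes, 3 were called higher, against 41.3% of all tested genes. All but Ikbke turned below 0 with ribosomal protein genes held constant. Ikbke, which encodes IKK-epsilon, an IKK-related kinase induced by inflammatory signals, had 3607, 3102 and 3819 normalized reads in grafts, against 816, 503 and 619.7 before grafting (log2 fold change 2.46, SE 0.18, adjusted p = 3.55e-05). Every graft was above every library before grafting. Ikbkg, or NEMO, the regulatory subunit of the IKK complex, was called higher with 1334, 1606 and 1640.1 normalized reads in grafts, against 1051, 1077 and 964 before grafting (log2 fold change 0.56, SE 0.11, adjusted p = 0.00833), and 5.2% of its exon bases are shared with G6pdx on the opposite strand; its call was lost under upper quartile scaling (adjusted p = 0.0614). Map3k14, or NIK, the kinase of the alternative branch, missed the threshold with 565, 678 and 632 normalized reads in grafts, against 512, 365 and 451 before grafting (log2 fold change 0.51, SE 0.15, adjusted p = 0.0559), and was called without replicate 1 before grafting (adjusted p = 0.0368). Ikbkap, named as an IKK-associated protein but known as a subunit of the Elongator complex, was called higher by 0.43 (adjusted p = 0.0157), and lost this call under each of the 3 other scalings and on leaving out graft replicate 3 or replicate 1 before grafting (adjusted p = 0.0634 and 0.0559). With ribosomal protein genes held constant Ikbkg, Map3k14 and Ikbkap were below 0, at -0.20, -0.25 and -0.33, and none of the 3 was called. Chuk and Ikbkb, the catalytic subunits of the complex, were not analysed here.

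Of the 5 NF-kB subunit genes, 4 were called higher in grafts, against 41.3% of all tested genes. With ribosomal protein genes held constant, however, only Nfkb2 kept its call and Rel turned to -0.12. Nfkb2, the precursor of p52, had 3476, 3729 and 3915 normalized reads in grafts, against 1491, 999.9 and 1099.7 before grafting (log2 fold change 1.65, SE 0.15, adjusted p = 1.19e-04); 6.5% of its exon bases are shared with Psd and 11.6% with AC114539.1, both on the opposite strand. Relb, whose protein pairs with p52, had 1452, 1516 and 1516 normalized reads in grafts, against 780.0, 523 and 626 before grafting (log2 fold change 1.24, SE 0.14, adjusted p = 4.88e-04). In each the lowest graft was above the highest library before grafting. Rela, the main activating subunit, had 2023, 2104 and 2000.1 normalized reads in grafts, against 1168, 1089 and 1043 before grafting (log2 fold change 0.89, SE 0.09, adjusted p = 1.86e-04). Nfkb1, the precursor of p50, had 3347, 4032 and 3754 normalized reads in grafts, against 2461, 1868 and 1999 before grafting (log2 fold change 0.82, SE 0.13, adjusted p = 0.00237). Rel, the c-Rel subunit of lymphoid and myeloid cells, had 1092, 1689 and 1422 normalized reads in grafts, against 1035, 658 and 1010.2 before grafting and missed the threshold (log2 fold change 0.64, SE 0.22, adjusted p = 0.0995); it was called without graft replicate 1 (adjusted p = 0.0339). With ribosomal protein genes held constant, Nfkb2 stood at 0.89 (adjusted p = 0.00312), Relb at 0.47 (adjusted p = 0.0791), Rela at 0.13 and Nfkb1 at 0.06.

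Shares within the family do not depend on library scaling. Nfkb2 took 40.8 ± 1.3 in grafts and 29.4 ± 2.06 before grafting of the reads per kilobase on the 5 subunit genes, in percent (SD, n = 3 each). Rela took 27.3 ± 1.28 in grafts and 33.2 ± 3.51 before grafting, and Nfkb1 took 11.1 ± 0.51 in grafts and 14.2 ± 0.15 before grafting. Relb took 13.96 ± 0.38 in grafts and 13.4 ± 0.85 before grafting, and Rel took 6.76 ± 1.14 in grafts and 9.77 ± 1.66 before grafting. For Nfkb2 the grafts lay above all libraries before grafting, for Rela, Nfkb1 and Rel they lay below them, and for Relb the groups overlapped. These shares were not tested.

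Of the 6 IkB family genes, 5 were called higher, against 41.3% of all tested genes. Their median log2 fold change, over all 6, was 1.97, against 0.89 for the subunits. Nfkbil1 was not called and turned to -0.24 with ribosomal protein genes held constant. Nfkbia encodes IkB-alpha, the main cytoplasmic inhibitor, and had 10212, 13529.5 and 13432 normalized reads in grafts, against 1579.6, 1374 and 1389.9 before grafting (log2 fold change 3.09, SE 0.13, adjusted p = 3.25e-06). Nfkbiz, an atypical nuclear IkB that helps to switch on secondary response genes, had 4369, 5949 and 5895 normalized reads in grafts, against 412, 367 and 362 before grafting (log2 fold change 3.81, SE 0.14, adjusted p = 1.66e-06). Nfkbid, another nuclear IkB, had 808, 1218 and 971 normalized reads in grafts, against 294, 157 and 154 before grafting (log2 fold change 2.35, SE 0.27, adjusted p = 4.30e-04). Grafts and libraries before grafting were separate in each case. Nfkbie, or IkB-epsilon, had 1359, 1872 and 1518 normalized reads in grafts, against 658, 402 and 536 before grafting (log2 fold change 1.59, SE 0.19, adjusted p = 6.37e-04). Nfkbib, or IkB-beta, had 859.7, 855 and 783 normalized reads in grafts, against 322, 325 and 323 before grafting (log2 fold change 1.36, SE 0.10, adjusted p = 3.90e-05), and 14.5% of its exon bases are shared with Ccer2 on the opposite strand. Nfkbil1, IkB-like by name, had 136, 128 and 128 normalized reads in grafts, against 95.6, 99.3 and 79.7 before grafting and missed the threshold (log2 fold change 0.51, SE 0.18, adjusted p = 0.124). It lies 18.2 kb from Tnf on chromosome 17, and 8.2% of its exon bases are shared with Atp6v1g2 on the opposite strand. The ratio of Nfkbia to the sum of the 5 subunit genes, per kilobase, was 2.44, 2.94 and 2.96 in grafts, against 0.69, 0.79 and 0.73 before grafting, a difference larger than the spread of either group.

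Of 11 feedback and TNF-induced genes, 10 were called higher, against 41.3% of all tested genes. With ribosomal protein genes held constant Tnfaip8, Tnfaip1 and the uncalled Tnfaip8l1 turned to the other direction. Tnfaip3 encodes A20, the ubiquitin-editing enzyme that ends TNF receptor signals, and had 6811, 8971 and 9507 normalized reads in grafts, against 926, 514 and 759 before grafting (log2 fold change 3.55, SE 0.22, adjusted p = 1.80e-05). Its ratio to the 5 subunit genes per kilobase was 0.36, 0.43 and 0.47 in grafts, against 0.09, 0.07 and 0.09 before grafting. The A20-binding proteins are encoded by Tnip1, Tnip2 and Tnip3. Tnip3 had 495, 379 and 339 normalized reads in grafts, against 19.7, 17.2 and 25.6 before grafting (log2 fold change 4.21, SE 0.24, adjusted p = 1.10e-05). Tnip1 had 3397, 3664 and 4159.6 normalized reads in grafts, against 1169, 953 and 1006 before grafting (log2 fold change 1.84, SE 0.12, adjusted p = 1.90e-05). Tnip2 was called higher by 0.94 (adjusted p = 7.43e-04), and stood at 0.18 and uncalled with ribosomal protein genes held constant. Tnfaip2, which takes part in forming membrane nanotubes between cells, had 5822, 10766 and 8035 normalized reads in grafts, against 395, 333 and 328 before grafting (log2 fold change 4.50, SE 0.21, adjusted p = 4.95e-06), and 6.3% of its exon bases are shared with antisense gene Gm40578. Tnfaip6, or TSG-6, a secreted hyaluronan-binding protein, had 317, 809.8 and 373 normalized reads in grafts, against 116, 48.6 and 42.3 before grafting (log2 fold change 2.86, SE 0.46, adjusted p = 0.0029), with graft replicate 2 above the other grafts. In the Tnfaip8 family of lipid-binding proteins, Tnfaip8l2, or TIPE2, an inhibitor of immune activation, had 843, 677 and 765 normalized reads in grafts, against 317, 269 and 225 before grafting (log2 fold change 1.50, SE 0.15, adjusted p = 2.36e-04). Tnfaip8l3 had 37.2, 77.6 and 85.1 normalized reads in grafts, against 26.6, 16.2 and 24.6 before grafting (log2 fold change 1.47, SE 0.38, adjusted p = 0.034), and this call was lost with ribosomal protein genes held constant (adjusted p = 0.571), under upper quartile scaling (adjusted p = 0.0686), and on leaving out any library but graft replicate 1 (adjusted p = 0.0647 to 0.125). Tnfaip8 and Tnfaip1, an adaptor of a cullin ubiquitin ligase, were called higher by 0.63 (adjusted p = 0.006) and 0.41 (adjusted p = 0.0422), and they stood at -0.13 and -0.35, not called, with ribosomal protein genes held constant. Tnfaip1 lost its call under each of the 3 other scalings and on leaving out any library but replicate 2 before grafting (adjusted p = 0.0533 to 0.151). Tnfaip8l1 had 238, 163 and 115 normalized reads in grafts, against 98.6, 96.2 and 139 before grafting, with overlapping groups (log2 fold change 0.58, SE 0.29, adjusted p = 0.405).

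**Figure D3:**
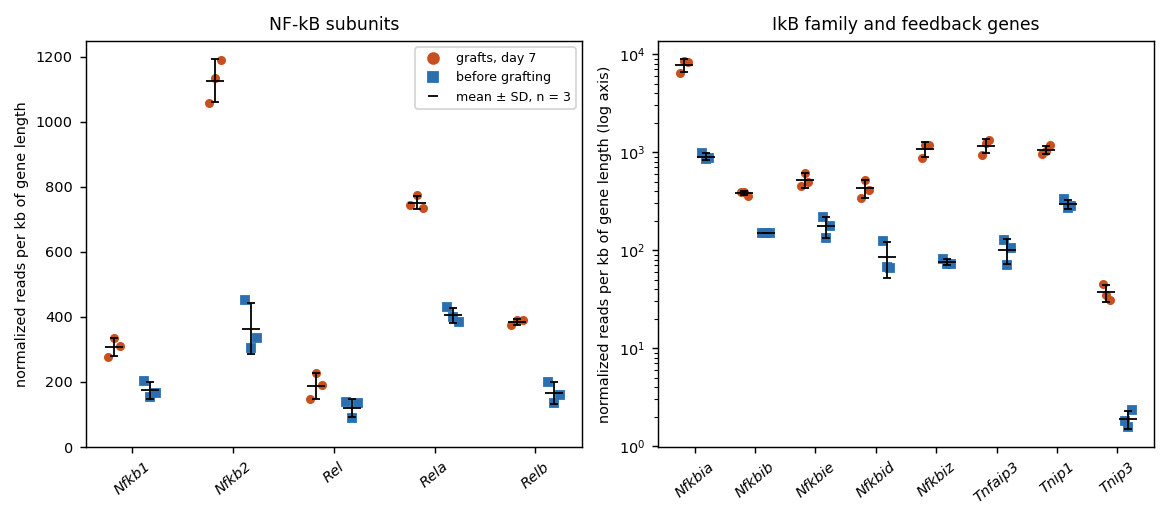
Normalized reads per kilobase of gene length in each library (points; circles grafts at day 7, squares before grafting) with mean ± SD (n = 3 each), for the 5 NF-kB subunit genes (left, linear axis from 0) and for IkB and feedback genes (right, log axis). Nfkbia is the highest of the genes shown in grafts; with ribosomal protein genes held constant Nfkb2 is the 1 subunit still called, and Rel turns to the other direction.

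Some members called higher carry a match to an NF-kB motif next to their start, and the sequences are shown for a ligand, a subunit and 2 inhibitors, since these encode the inducer, the p52 precursor and the main feedback proteins of the pathway. RefSeq promoter windows of 300 bases, 250 before to 50 after the start (GRCm38.p6), were available for 48 of the 62 members, with more than 1 start for some. The motif searched was GGANNTTCC on both strands. A site whose letters fit the motif on both strands is counted here as 1 place. Other forms of the NF-kB motif were not searched, so a window without a match may still hold one. Of all 48 members with a window, 7 had a match (14.6%). Of 33 members called higher and matched, 6 had a match (18.2%), and of 9 called lower, 0 had one. The difference between these groups was not tested. A match was present in 4.86% of the 27025 genes with RefSeq promoters, in 6.12% of tested genes called higher and in 5.12% of those called lower. The members with a match were Tnf, Nfkb2, Nfkbia, Nfkbie, Tnfaip2 and Tnfaip3, and Tnfaip8l1 among those not called. A match describes letters and shows neither binding nor a cause. The windows below run 5′ to 3′ along the gene, with matches in capitals and positions counted from the start.
Nfkbia, chr12:55492598-55492897, minus strand, with matches from positions -178 and -29
Nfkbia: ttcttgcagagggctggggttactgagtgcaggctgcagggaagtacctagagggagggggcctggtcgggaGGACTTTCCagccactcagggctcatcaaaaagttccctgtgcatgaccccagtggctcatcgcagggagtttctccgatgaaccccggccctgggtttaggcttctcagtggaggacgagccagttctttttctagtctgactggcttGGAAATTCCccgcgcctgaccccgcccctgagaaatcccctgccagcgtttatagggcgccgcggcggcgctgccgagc
Tnfaip3, chr10:19015361-19015660, minus strand, with a match from position -24
Tnfaip3: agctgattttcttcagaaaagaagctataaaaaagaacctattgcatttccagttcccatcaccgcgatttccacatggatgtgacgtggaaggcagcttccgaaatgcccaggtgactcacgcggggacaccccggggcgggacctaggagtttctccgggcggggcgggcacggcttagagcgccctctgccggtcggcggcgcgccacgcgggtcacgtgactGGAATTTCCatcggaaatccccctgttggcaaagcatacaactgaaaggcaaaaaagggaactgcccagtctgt
Nfkb2, chr19:46305445-46305744, plus strand, with matches from positions -236 (reverse strand) and 12
Nfkb2: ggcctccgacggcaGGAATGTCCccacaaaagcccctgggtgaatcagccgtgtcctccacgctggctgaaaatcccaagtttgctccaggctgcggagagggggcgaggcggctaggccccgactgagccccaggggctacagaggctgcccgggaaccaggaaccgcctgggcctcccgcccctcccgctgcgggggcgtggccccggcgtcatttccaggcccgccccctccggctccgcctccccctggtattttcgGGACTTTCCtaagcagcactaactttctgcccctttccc
Tnf, chr17:35201958-35202257, minus strand, with a match from position -212
Tnf: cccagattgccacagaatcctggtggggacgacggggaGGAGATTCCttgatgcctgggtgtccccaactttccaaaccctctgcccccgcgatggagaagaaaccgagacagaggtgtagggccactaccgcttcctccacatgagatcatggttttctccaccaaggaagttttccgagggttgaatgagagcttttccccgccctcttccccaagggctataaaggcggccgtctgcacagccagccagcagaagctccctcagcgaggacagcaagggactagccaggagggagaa
Tnfaip3 and Nfkb2 have other RefSeq starts, which lie elsewhere; the window of a second Nfkb2 start holds the same GGACTTTCC, and another start of each gene has no match. The remaining matches were GGATTTTCC in Tnfaip2, from position -87, and GGAAGCTCC, on the reverse strand, in Nfkbie, from position -76. In Nfkbia and Nfkb2 the letters GGACTTTCC were identical.

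Several of the members called lower are known from lymphocytes. Tnfrsf13c, the BAFF receptor of B cells, had 8.0, 33.9 and 6.9 normalized reads in grafts, against 594, 320.1 and 462 before grafting (log2 fold change -5.04, SE 0.55, adjusted p = 3.47e-04), the largest fall among the tested members. Cd40lg, by which helper T cells activate B cells and macrophages, had 7.0, 6.8 and 4.9 normalized reads in grafts, against 84.8, 46.6 and 63.0 before grafting (log2 fold change -3.15, SE 0.35, adjusted p = 3.42e-04); no graft reached the minimum of 10, so it had to differ to be tested. Tnfrsf25, the death receptor DR3 of T cells, had 23.1, 25.2 and 32.6 normalized reads in grafts, against 251, 237 and 211 before grafting (log2 fold change -3.07, SE 0.22, adjusted p = 3.22e-05). For Tnfrsf13c and Tnfrsf25 the groups were far apart. Traf3ip3, an adaptor with known roles in lymphocyte development, had 90.4, 127 and 109 normalized reads in grafts, against 1031, 545 and 732 before grafting (log2 fold change -2.78, SE 0.24, adjusted p = 9.86e-05), and 7.3% of its exon bases are shared with A130010J15Rik on the opposite strand. Traf5, an adaptor of CD40 and OX40, had 122, 128 and 133 normalized reads in grafts, against 327, 214 and 297 before grafting (log2 fold change -1.11, SE 0.19, adjusted p = 0.00428). Tnfrsf18, or GITR, a marker of regulatory and activated T cells, had 28.1, 56.2 and 47.5 normalized reads in grafts, against 151, 100.3 and 106 before grafting (log2 fold change -1.45, SE 0.31, adjusted p = 0.0129), and 27.2% of its exon bases are shared with antisense gene Gm16008. Tnfrsf4, or OX40, had 19.1, 46.5 and 30.7 normalized reads in grafts, against 71.0, 61.8 and 93.4 before grafting (log2 fold change -1.27, SE 0.36, adjusted p = 0.0467). The call of Tnfrsf18 was lost without replicate 1 before grafting (adjusted p = 0.0623), and that of Tnfrsf4 on leaving out any library but graft replicate 2 (adjusted p = 0.0789 to 0.204). Traf3ip1, a protein of ciliary transport, was called lower (log2 fold change -0.71, SE 0.17, adjusted p = 0.02); this call was lost without graft replicate 1 or 3 or replicate 1 before grafting (adjusted p = 0.0508 to 0.0855). Without replicate 1 before grafting, 6 members were called lower in place of 10. Tnfrsf17, or BCMA, of plasma cells, was not tested and had 0, 1.9 and 0 normalized reads in grafts, against 10.8, 9.1 and 14.8 before grafting.

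Lymphocyte markers were lower in grafts as well. Summed B cell markers (9 of 9 called lower) were 229.9, 470.4 and 197 normalized reads in grafts 1, 2 and 3, against 14476, 6902 and 11407 in replicates 1, 2 and 3 before grafting. For the B cell marker Fcer2a no graft reached the minimum of 10, so it had to differ to be tested. Summed T cell markers (11 of 11 called lower) were 403, 945 and 537 in grafts, against 8755, 5163 and 6471 before grafting. No marker of either list was at 0 in any library. Among the libraries before grafting, replicate 1 had the highest and replicate 2 the lowest sums. Tnfrsf13c, Cd40lg, Traf3ip3, Traf5, Tnfsf13b and Tnfrsf18 followed the same order, 6 of the 10 members called lower, while Tnfrsf25, Tnfrsf4, Tnfsf10 and Traf3ip1 did not. Over all 62 members, 41 were highest in replicate 1 and 39 lowest in replicate 2, against 34.9% and 32.9% of tested genes. The share with both at once was not computed, for all members or for all tested genes. Nfkb2 and Relb, both called higher, had this order too, so it was not particular to the members called lower. Among grafts, replicate 2 had the highest sums, and Tnfrsf13c, Tnfrsf4, Tnfrsf18, Traf3ip3, Traf3ip1 and Tnfsf10 were also highest there, again 6 of the 10, while Cd40lg, Tnfrsf25, Traf5 and Tnfsf13b were not. The share of all tested genes that were highest in graft replicate 2 was not computed. Of 3 listed lymph node stroma entries, Glycam1 and 2 named Ccl21a, 2 were tested. Glycam1, of lymph node venules, fell to 11.0, 21.3 and 34.6 normalized reads in grafts, against 1008, 529 and 1020.0 before grafting (log2 fold change -5.27, SE 0.42, adjusted p = 6.43e-05). Ccl21a, a chemokine gene of lymph node stroma, was not called in its entry on a scaffold outside the assembled chromosomes. This entry had 26.1, 0 and 22.8 normalized reads in grafts, against 93.7, 57.7 and 717 before grafting (log2 fold change -4.20, SE 1.41, adjusted p = 0.105), so that replicate 3 stood apart before grafting. The Ccl21a entry on chromosome 4 was not tested, with 0, 0 and 0 in grafts, against 8.9, 1.0 and 4.9 before grafting. How reads were shared between these entries was not examined. The part of lymphocyte content in these falls was not tested.

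**Figure D4:**
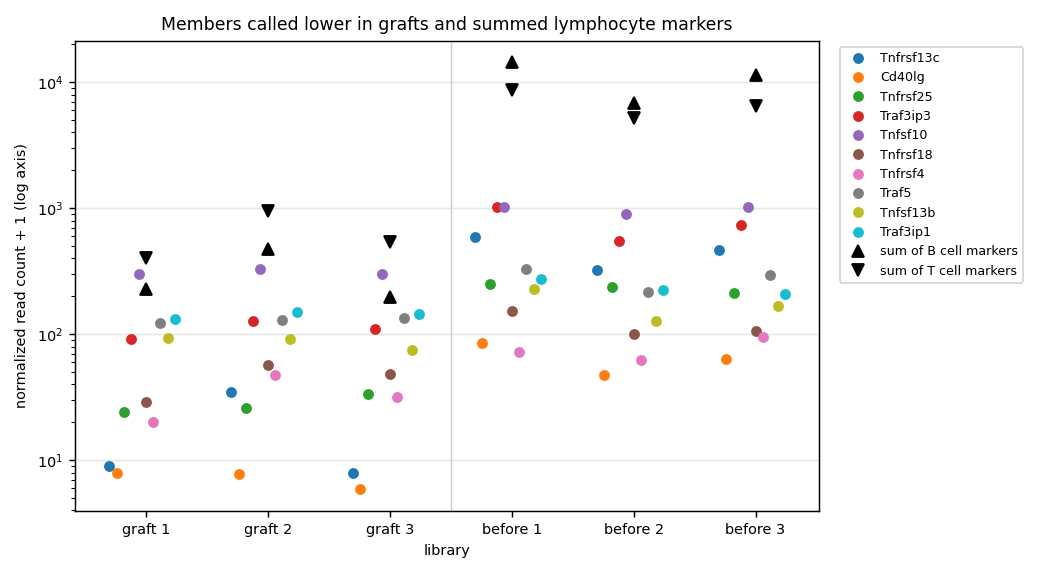
Normalized read count + 1 (log y axis) in each library (x axis) of the 10 members called lower in grafts (coloured points) and of the summed B cell and T cell markers (black triangles). Every member shown lies lower in the 3 grafts than in the 3 libraries before grafting, and both marker sums are lower there too. The groups were separate for 97.6% of all tested genes.

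Other genes of the pathway, listed by function, were also mostly higher, less so with ribosomal protein genes held constant. Of 40 genes of receptor signalling to NF-kB or to cell death, 30 were listed and tested. Of these, 21 were called higher and 6 lower, against 41.3% and 39.2% of all tested genes. The median log2 fold change was 0.71, against 0.28 for all tested genes. With ribosomal protein genes held constant, 11 were higher and 7 lower, against 18.1% and 52.7% of all tested genes. Irak3, Card9 and Bcl3 had the highest log2 fold changes of the list. Irak3, an inhibitor of Toll-like receptor signalling, had 3540.2, 3473 and 3567 normalized reads in grafts, against 400.3, 349 and 342 before grafting (log2 fold change 3.28, SE 0.10, adjusted p = 8.67e-07). Card9, an adaptor of C-type lectin receptors, had 631, 485 and 588 normalized reads in grafts, against 87.8, 89.1 and 75.7 before grafting (log2 fold change 2.73, SE 0.16, adjusted p = 1.32e-05). Bcl3, a nuclear IkB protein that binds p50 and p52, had 1419, 1658 and 1700.4 normalized reads in grafts, against 303, 208 and 236 before grafting (log2 fold change 2.69, SE 0.16, adjusted p = 1.21e-05).

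Family members whose symbols lie outside the rule were split, with 3 of 7 tested called higher (Eda2r, Relt and Ltbr) and 4 lower (Cd27, Lta, Ltb and Eda). Of all tested genes 41.3% were higher and 39.2% lower. With ribosomal protein genes held constant 1 was called higher and 4 lower, against 18.1% and 52.7% of all tested genes. Relt, Ltbr and Eda are named here after their values were seen. Cd27, a lymphocyte receptor, had 15.1, 40.7 and 17.8 normalized reads in grafts, against 537, 318 and 316 before grafting (log2 fold change -4.03, SE 0.39, adjusted p = 1.85e-04). Lta, which encodes lymphotoxin alpha and lies beside Tnf, had 11.0, 7.8 and 4.9 normalized reads in grafts, against 105, 30.4 and 72.8 before grafting (log2 fold change -2.87, SE 0.51, adjusted p = 0.0046). Ltb, which encodes its membrane partner, had 211, 322 and 196 normalized reads in grafts, against 1567, 909 and 973 before grafting (log2 fold change -2.23, SE 0.25, adjusted p = 4.39e-04). These 3 were lower in every graft than in any library before grafting. Eda2r, a receptor for ectodysplasin, had 194, 163 and 272 normalized reads in grafts, against 66.1, 44.6 and 60.0 before grafting (log2 fold change 1.85, SE 0.26, adjusted p = 0.00122).

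Among textbook NF-kB target genes, many of which myeloid cells express, 24 of 29 tested were called higher and 2 lower. The shares of all tested genes were 41.3% and 39.2%. The median log2 fold change was 4.27, against 0.28 for all tested genes. With ribosomal protein genes held constant 20 targets were higher and 3 lower, against 18.1% and 52.7% of all tested genes. Saa3, Cxcl2 and Il1b, an acute phase protein, a neutrophil chemokine and an inflammatory cytokine, had the highest log2 fold changes of the list. Saa3 had 115655, 94997 and 147139 normalized reads in grafts, against 11.8, 8.1 and 3.0 before grafting (log2 fold change 13.89, SE 0.40, adjusted p = 1.14e-06). Cxcl2 had 15807, 28835 and 23165 normalized reads in grafts, against 2.0, 4.1 and 0 before grafting (log2 fold change 13.12, SE 0.55, adjusted p = 4.44e-06). Il1b had 14007, 30010.0 and 22872 normalized reads in grafts, against 12.8, 7.1 and 14.8 before grafting (log2 fold change 10.78, SE 0.32, adjusted p = 1.08e-06). Cxcl2, Il6 and Csf3 had no library before grafting at the minimum of 10, so these 3 of the 24 called higher had to differ to be tested; Il6 and Csf3 are named after their values were seen. Ccr7, the chemokine receptor of lymphocytes and migrating dendritic cells, was called lower with 69.3, 333 and 49.5 normalized reads in grafts, against 878, 554 and 785 before grafting (log2 fold change -2.78, SE 0.64, adjusted p = 0.0203). Its call was lost on leaving out graft replicate 1 or any library before grafting (adjusted p = 0.0685 to 0.089), which leaves 1 target called lower, Vcam1, named here after its value was seen, at -0.52 (adjusted p = 0.00882).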

How the data were processed

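RNA-seq of mouse fat was deposited as 1 table of genes by libraries. The deposited signal values are read counts that the authors divided by a size factor for each library: every value is a whole multiple of its column's smallest value. The other deposited column used, the authors' gene length in bases, served for levels per kilobase. Per the submitters' processing notes, Bowtie 0.12.2 and HISAT2 2.0.5 were run and mm8 and mm9 are the builds named, whereas gene positions in the table fit GRCm38, the build used for all coordinates here. Genes with at least 10 normalized reads in at least 3 libraries were tested on log2(value + 1) with limma 3.58.1 (R 4.3.3), with group as the only term, a trend and robust variances, and were called at an adjusted p under 0.05. Benjamini-Hochberg adjustment ran over 55450 annotated genes, those outside the table or untested at p of 1. Fold changes are on the log2(value + 1) scale, which understates those of low genes. Tables and shares were computed with Python 3.11.15, pandas 2.3.3 and numpy 2.4.6. The fit was tested on simulated data. Members and lists were chosen with earlier results of these data known. Every member is named, those called with a log2 fold change of at least 1 in size, NF-kB subunits, IkB genes and Tnf with all values, and from each other list at most 3 genes of the main direction and 1 of the other; 1 gene that this rule names is not reported here. Alternatives were other scalings, pseudocount 5, no filter, adjustment over tested genes only, a replicate block and leaving out each library.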

Additional observations from a re-analysis of the deposited data

How the results depend on the processing

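With the cytosolic ribosomal protein genes held constant, 26 members were called higher, with 11 other pathway genes and 1 other TNF family gene, and the log2 fold changes of Nfkbil1 and Rel turned to -0.24 and -0.12; the cause was not tested. That scaling moved the median of all tested genes from 0.28 to -0.48, and the share of calls that were higher to 25.5% for all tested genes and 70.3% for members, against 51.3% and 81.8% as deposited. Under median of ratios and upper quartile scaling 42 and 39 members were higher and 10 lower. With a replicate block, 40 members were higher and 6 lower, and 9 members lost their call, among them Tnfsf4 (adjusted p = 0.0591), Tnfsf13b (adjusted p = 0.051), Tnfrsf18 (adjusted p = 0.0507) and Tnfrsf4 (adjusted p = 0.0886). Same-numbered libraries had correlations of -0.157, -0.127 and 0.0407 in their deviations from the group means, so the numbers were not taken to pair them. Leaving out 1 library gave 40 to 44 members higher and 6 to 9 lower, and 1 to 2 NF-kB targets lower. Pseudocount 5 gave 45 higher and 10 lower, no filter 46 and 11, and adjustment over the tested genes alone 50 and 10. The planned count models were not run, although whole reads can be recovered from the values. Low counts limit Tnfsf4, Cd40lg and Tnfrsf17.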
